A study of Mus musculus with 8 samples.

Results

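Langerhans-type cells of mouse dorsal skin were taken as the cells with at least 1 UMI (unique molecular identifier, 1 captured transcript) of Cd207, the gene of the C-type lectin langerin, together with high MHC class II transcripts. Members were chosen by these transcript counts: a cell needed between 500 and 4000 genes, no more than 20000 UMIs and no more than 10% of them mitochondrial, at least 2 of the 4 genes H2-Aa, H2-Ab1, H2-Eb1 and Cd74 at 3 or more UMIs, at most 1 of C1qa, C1qb and C1qc at 2 or more UMIs, and no UMI of Cd3e. Of 11118 cells that passed the cell filter, 207 met this rule, which is 1.86% (95% exact binomial interval 1.62 to 2.13). They were divided by Epcam, the gene of an epithelial cell adhesion molecule, into 181 cells with at least 1 UMI (Epcam-positive) and 26 cells with none (Epcam-negative).

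The libraries came from dorsal skin of female BALB/c mice that the labels give as 14-16 weeks old. In 4 libraries (PBMCsec 1 to 4) the skin had been injected under the skin surface with PBMCsec, the conditioned medium of irradiated human peripheral blood mononuclear cells, and in 4 (vehicle 1 to 4) with a vehicle control. According to the study's methods the injected skin was scar tissue formed after full-thickness wounding, with mice taken either at the end of the injections or after a further period without them, and the control solution was saline or medium; the labels do not tell which library is which, so neither the time nor the control solution could be separated. The study gives the age of the mice when used or wounded, so that its ages and that in the labels need not be of the same time point. The labels mention no wounding, and the title of the deposited series concerns mast cells and basophils, so that the injected skin is called dorsal skin here. Each library held between 14753926 and 37880651 UMIs over its deposited barcodes.

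Langerhans cells are the antigen-presenting cells of the epidermis. They sit between keratinocytes, to which they adhere through E-cadherin, and they express Epcam. They depend on signals through the receptor Csf1r and on TGF-beta signalling, and they carry langerin in Birbeck granules. Langerin is not theirs alone, since dermal type 1 conventional dendritic cells (cDC1) of mice also carry it, and these express Xcr1, Clec9a, Irf8 and Batf3 and usually less Epcam. Cd207 lies at chr6:83671215-83677857 on the minus strand and Epcam at chr17:87635979-87651129 on the plus strand of the mouse genome build mm10.

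The members were unevenly spread over the libraries. PBMCsec 1 to 4 held 17, 3, 64 and 23 members, and vehicle 1 to 4 held 10, 6, 58 and 26. The number of cells behind them was as uneven, with 1080, 529, 2534 and 1600 cells in PBMCsec 1 to 4 and 318, 409, 2903 and 1745 in vehicle 1 to 4. The members were therefore 1.57%, 0.567%, 2.53% and 1.44% of the cells of PBMCsec 1 to 4, and 3.14%, 1.47%, 2.0% and 1.49% of those of vehicle 1 to 4. Under these filters PBMCsec 2 had the lowest share and vehicle 1 the highest, and the groups overlapped.

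The PBMCsec libraries averaged 1.53% ± 0.802 (SD, n = 4) and the vehicle libraries 2.02% ± 0.786 (SD, n = 4), which is a difference of -0.50 percentage points that was smaller than the spread between libraries (two-sided exact permutation test, p = 0.429; the smallest p this design allows is 0.0286). Among the libraries numbered 3 and 4 alone, which hold most of the members, the difference had the other sign, 0.238 percentage points, and among those numbered 1 and 2 it was -1.24. Of the 827 cells high in MHC class II transcripts, 25% were members, with a PBMCsec mean of 17.2% ± 11 (SD, n = 4) and a vehicle mean of 28.6% ± 6.21 (SD, n = 4) (two-sided exact permutation test, p = 0.143). Of the 207 members, 0 had a barcode that also occurred in another library.

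**Figure D1:**
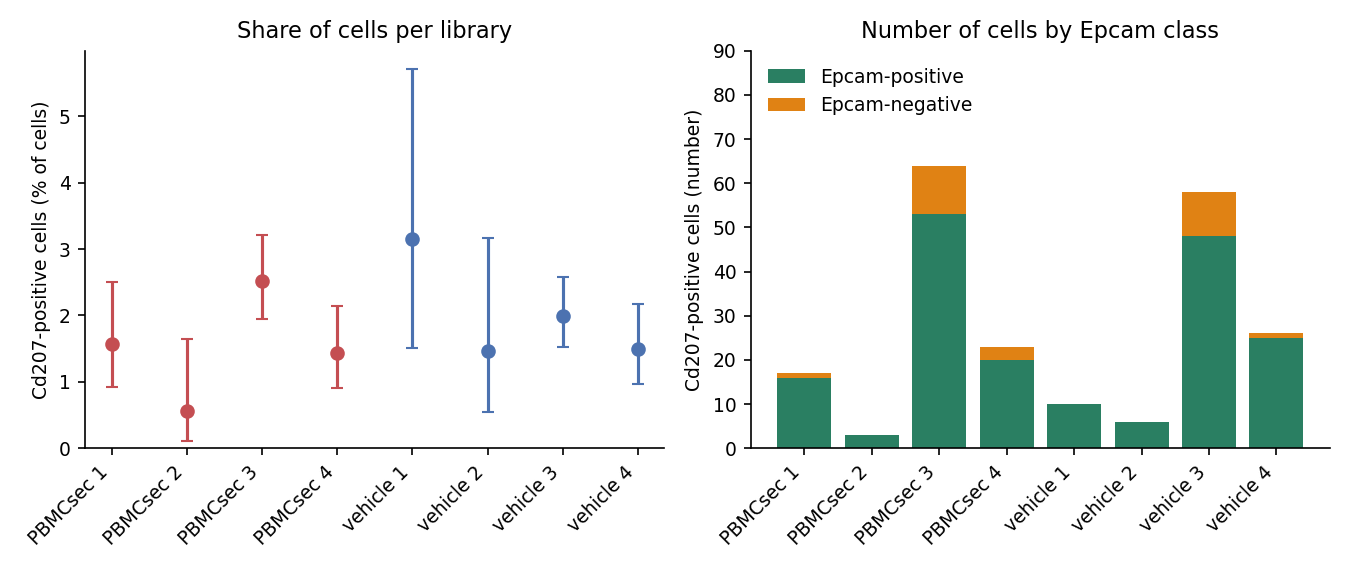
Left, share of Cd207-positive cells among the cells that passed the filter, in percent, for each PBMCsec (red) and vehicle (blue) library, with 95% exact binomial intervals; right, number of members per library, stacked by Epcam class. PBMCsec 2 is lowest in share at 0.567% and vehicle 1 highest at 3.14%, and 21 of the 26 Epcam-negative members come from PBMCsec 3 and vehicle 3.

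The filters removed cells of the same kind. Of 328 barcodes that met the transcript criteria, 207 were kept, 79 exceeded the mitochondrial limit, 12 had under 500 genes and 30 exceeded the ceiling on genes or UMIs. The ceiling removed 3, 8, 3 and 0 such barcodes from PBMCsec 1 to 4 and 9, 5, 2 and 0 from vehicle 1 to 4, so that it fell mostly on the smaller libraries. Without the ceiling, an alternative added after the data had been seen, the means became 1.38% ± 0.559 (SD, n = 4) for PBMCsec and 1.79% ± 0.752 (SD, n = 4) for vehicle, with a difference of -0.403 percentage points (two-sided exact permutation test, p = 0.514). PBMCsec 2, which lost 8 of 11 such cells to the ceiling, then stood at 1.19%, above PBMCsec 1 (1.16%), PBMCsec 4 (0.975%) and vehicle 4 (1.16%), so that the lowest place in the order was set by the ceiling.

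The members had a median of 7498 UMIs (range 1087 to 19201) and 2300 genes. Over all cells that passed the filter, the library medians ranged from 6682 UMIs in PBMCsec 2 to 8753.5 in PBMCsec 4. The median of the members per library ranged from 5527.5 UMIs in vehicle 3 to 17919 in PBMCsec 2, which had 3 members. Epcam-negative members were no shallower, with a median of 8464 UMIs against 7440 in Epcam-positive members.

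The genes of the rule are given here as a description, since they chose the cells. Cd207 had a median of 20 UMIs per member, with a range from 1 to 286, and 15 members had a single UMI. In the summed members Cd207 stood at 4225, 3422, 3125 and 2405 counts per 1e6 UMIs of the summed cells (CPM) in PBMCsec 1 to 4 and at 2020, 3707, 3101 and 2836 CPM in vehicle 1 to 4, so that the groups overlapped. As a measure of free RNA, 16 of 3693 keratinocytes (0.433%, median 9149 UMIs) had a Cd207 UMI, and none had more than 1. These keratinocytes were gated by Krt14 and Krt5 with Cd74 at 0. Barcodes with stray Cd74 RNA were thus left out, and this and the later keratinocyte shares may understate free RNA. Of 1685 fibroblasts, gated without a limit on Cd74, 6 had 1 Cd207 UMI and 1 had 10 or more. Just outside the rule, 474 cells met all other criteria with Cd207 at 0, of which 110 had Epcam. Another 46 cells with Cd207 did not reach the class II threshold of the rule and had a median of 1 UMI of Cd207.

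The class II genes encode the alpha and beta chains that present peptide to CD4 T cells, and Cd74 encodes their invariant chain. All 4 were at 3 or more UMIs in 205 of the 207 members. Epcam had a median of 10 UMIs and reached 66. Its level per library ran from 1160 CPM in PBMCsec 3 to 2009 CPM in PBMCsec 2. Unlike Cd207, an Epcam UMI by itself does not set a cell apart here, since 71.7% of keratinocytes had one.

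C1qa, which encodes a chain of the complement component C1q, was the other gene of the rule with a sizeable level. A total of 58 members had exactly 1 C1q gene at 2 or more UMIs, and their median of Cd207 was 30 UMIs. Over all members there were 284 UMIs of C1qa, 3 of C1qb and 9 of C1qc, which is 1.06 of C1qb and 3.17 of C1qc for each 100 of C1qa. In 188 cells gated as macrophages by at least 2 C1q genes, the same ratios were 72.9 and 62.5. These ratios are a description only, since both gates use the C1q genes and fix much of the contrast. C1qa was present in 50.3% of Epcam-positive and 3.8% of Epcam-negative members, and in 0.8% of keratinocytes.

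The label was checked against lists of 10 Langerhans genes (among them Cd24a, Mfge8, Cldn1, Ltc4s, Il1r2, Csf1r, Runx3, Id2 and Spi1, without Cd207 and Epcam) and 10 cDC1 genes (Xcr1, Clec9a, Irf8, Batf3, Itgae, Naaa, Wdfy4, Cadm1, Tlr3 and Ifi205). A total of 170 members had more Langerhans than cDC1 genes detected, 35 had more cDC1 genes and 2 had equal numbers. The difference was at least 4 genes in 162 cells on the Langerhans side and in 20 on the cDC1 side, and smaller in the other 25. The median of Cd207 was 20.5 UMIs in the cells with more Langerhans genes and 5 UMIs in those with more cDC1 genes. Most members thus carried the markers of the name, whereas 35 of them carried more markers of the other langerin-positive cell type of mouse skin.

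Epcam divided the members along nearly the same line. Of the 181 Epcam-positive members, 166 had more Langerhans genes and 14 more cDC1 genes, with medians of 8 and 1 genes detected. The 12 members with Epcam at 1 UMI were near even, 5 with more Langerhans, 6 with more cDC1 genes and 1 with equal numbers, beside an Epcam UMI in 2.55% of fibroblasts and 2.66% of C1q macrophages (median depths 4585, 7400 and 4643.5 UMIs). Epcam was more frequent in 149 dermal dendritic cells gated by Cd209a and Mgl2 (median 7371 UMIs). There 14 cells had it at 1 UMI, 6 at 2 UMIs and 6 at 5 or more UMIs. Of the 26 Epcam-negative members, 21 had more cDC1 genes and 4 more Langerhans genes, with medians of 7.5 and 3.5. Members with more cDC1 genes numbered 1, 0, 19 and 2 in PBMCsec 1 to 4 and 0, 0, 10 and 3 in vehicle 1 to 4, which came to 29.7% of the members of PBMCsec 3 and 17.2% of those of vehicle 3. A result on all members of these libraries thus rests on cells of both sides in unequal parts.

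**Figure D2:**
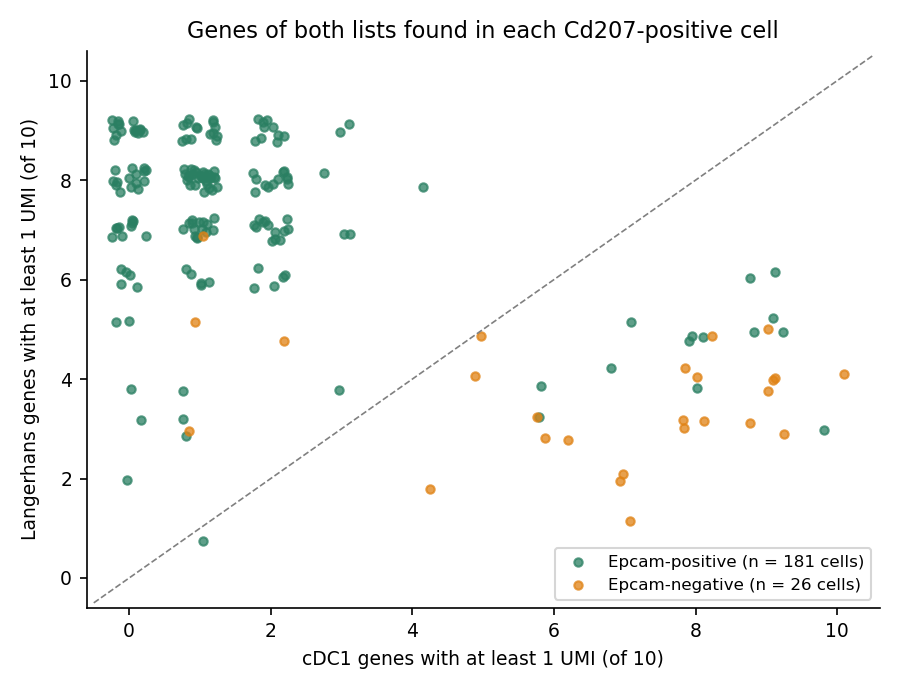
Number of the 10 cDC1 genes (horizontal axis) and of the 10 Langerhans genes (vertical axis) detected in each of the 207 members, 1 point per cell, shifted slightly at random so that points do not hide each other; colours mark the Epcam class. Most Epcam-positive cells lie at many Langerhans and few cDC1 genes, and 21 of 26 Epcam-negative cells have more cDC1 genes.

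Most but not all genes of the lists followed this line in the share of cells with a UMI. Mfge8, the secreted bridge protein that binds phosphatidylserine, was detected in 87.8% of Epcam-positive and 15.4% of Epcam-negative members, beside 40.6% of keratinocytes and 64.1% of fibroblasts. Ltc4s, leukotriene C4 synthase, was detected in 82.9% and 11.5%, and in 0.2% of keratinocytes. Csf1r, the receptor of IL-34 and of CSF1, was detected in 86.7% and 11.5%, and in 0.5% of keratinocytes. Other genes of the Langerhans list did not follow it. Cd24a, the gene of a surface glycoprotein, was detected in 66.3% of Epcam-positive and 76.9% of Epcam-negative members, Id2, a transcriptional regulator of several dendritic cell types, in 81.2% and 96.2%, and Spi1, the gene of the myeloid factor PU.1, in 90.6% and 84.6%. On the cDC1 side, the chemokine receptor gene Xcr1 was detected in 7.7% of Epcam-positive and 73.1% of Epcam-negative members. Clec9a, a receptor for dead cells, was detected in 6.1% and 65.4%. Ccr2, a chemokine receptor of cells recruited from blood that was listed with the type 2 dendritic cell genes, was detected in 6.6% and 80.8%.

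**Figure D3:**
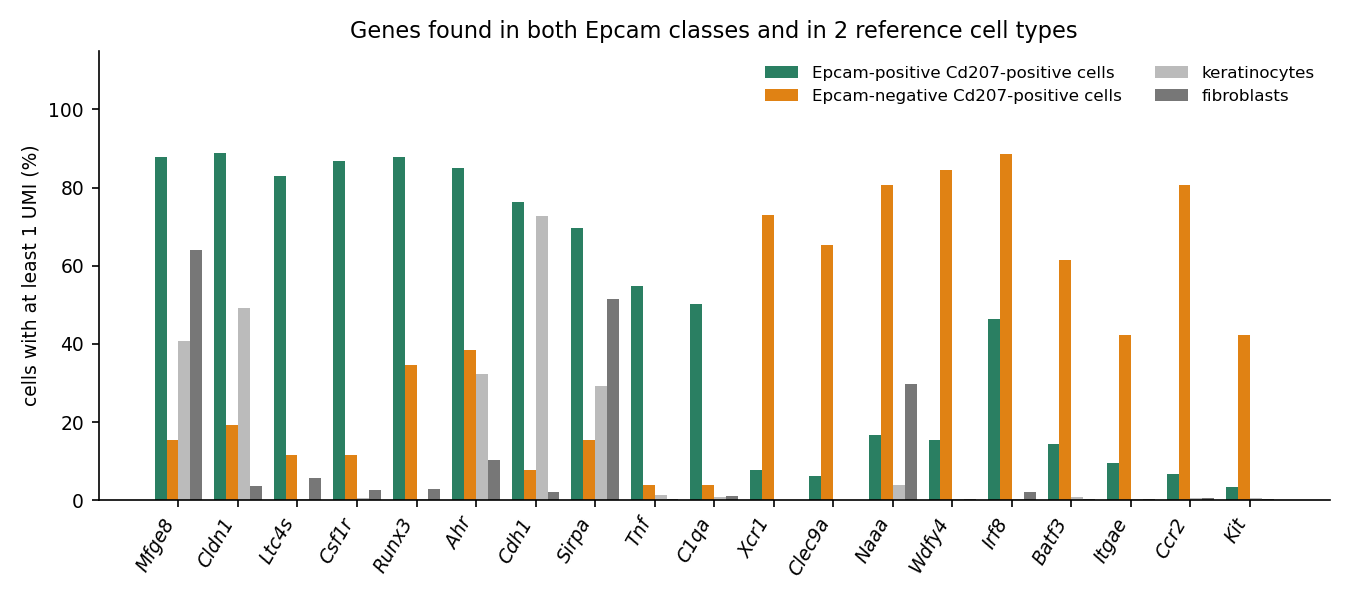
Percentage of cells with at least 1 UMI of each gene among Epcam-positive members, Epcam-negative members, keratinocytes and fibroblasts; bars are shares of cells over all libraries. Ltc4s and Csf1r are found in most Epcam-positive members and in few keratinocytes, Xcr1, Clec9a and Ccr2 in most Epcam-negative members, and Mfge8 also in many keratinocytes and fibroblasts.

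The share of Epcam-positive cells among members was compared between treatments in the 7 libraries with at least 5 members. Epcam-positive and Epcam-negative cells numbered 16 and 1, 53 and 11, and 20 and 3 in PBMCsec 1, 3 and 4. They numbered 10 and 0, 6 and 0, 48 and 10, and 25 and 1 in vehicle 1 to 4. Epcam-positive cells averaged 88.0% ± 5.72 (SD, n = 3) of the members in PBMCsec libraries and 94.7% ± 8.18 (SD, n = 4) in vehicle libraries, which is a difference of -6.77 percentage points within the spread between libraries (two-sided exact permutation test, p = 0.257). It was -3.76 points over all 8 libraries (p = 0.571) and -11.05 points with Epcam at 2 or more UMIs (p = 0.20, both exact permutation tests).

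To describe the 2 classes, the UMIs of each class were added up within each library and compared by edgeR's quasi-likelihood test with Benjamini-Hochberg adjustment, for genes outside the rule. Only PBMCsec 3 and vehicle 3 held at least 5 cells of both classes, which leaves 1 residual degree of freedom. Of 2924 genes tested, 374 (12.8%) passed an adjusted p of 0.05, of which 223 (7.63%) were higher and 151 (5.16%) lower in Epcam-positive cells. DESeq2 called 90 (3.08%), 59 higher and 31 lower, so that the number of calls depended on the tool. It gave no adjusted p for 1077 of the 2924 genes, which therefore could not be called by it.

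Of the 9 Langerhans genes tested, 6 were higher in Epcam-positive cells with edgeR, namely Mfge8, Cldn1, Ltc4s, Il1r2, Csf1r and Runx3, 4 of them also with DESeq2 (not Ltc4s and Runx3), and the median log2 fold change of the 9 was 3.03, beside 0.02 over all genes tested. Cd24a and Id2 had values of the other sign (-0.93 ± 0.28 SE, adjusted p = 0.0691, and -0.85 ± 0.27 SE, adjusted p = 0.084, edgeR), and Spi1 did not pass. Mfge8 stood at 1258 and 1427 CPM in Epcam-positive cells and at 9.17 and 31.4 CPM in Epcam-negative cells of these libraries, where it rested on 3 UMIs, so that the summed levels differed 76.4-fold (95% exact interval from counting error 26.0 to 371; adjusted p = 0.000918, edgeR). Csf1r stood at 469 and 635 CPM against 0 and 78.4 CPM (log2 fold change 4.16 ± 0.66 SE, adjusted p = 0.00823). Ltc4s stood at 741 and 795 CPM against 0 and 94.1 CPM (log2 fold change 4.39 ± 0.68 SE, adjusted p = 0.00762). Both had no UMI in the Epcam-negative cells of 1 library, and their log2 fold changes moved between 2.54 and 9.69 for Csf1r and between 2.91 and 6.73 for Ltc4s over the alternative settings. Runx3 was not called with cells thinned to 2000 UMIs either (adjusted p = 0.0561, edgeR). Il1r2, the decoy receptor of interleukin 1, was at 439 and 571 CPM against 0 and 15.7 CPM, the latter from 1 UMI. In none of these genes did the classes overlap.

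Of the 10 cDC1 genes tested, 9 were lower in Epcam-positive cells, with a median log2 fold change of -2.33 over the 10, and Itgae, which encodes the CD103 integrin chain, missed the threshold (-1.77 ± 0.61 SE, adjusted p = 0.105). Irf8, a transcription factor on which cDC1 depend, stood at 196 and 464 CPM in Epcam-positive and at 1709 and 1991 CPM in Epcam-negative cells (log2 fold change -2.56 ± 0.28 SE, adjusted p = 0.00335). Naaa, which encodes a lysosomal amidase, stood at 196 and 496 CPM against 1583 and 2257 CPM (-2.55 ± 0.26 SE, adjusted p = 0.00308). Xcr1 stood at 61.7 and 175 CPM against 298 and 587 CPM (-1.92 ± 0.31 SE, adjusted p = 0.00831), and was called neither by DESeq2 (adjusted p = 0.0827) nor by edgeR with cells thinned to 2000 UMIs (adjusted p = 0.179). DESeq2 called 3 of the 10 (Irf8, Naaa and Wdfy4), and 5 of the 10 were called at a 5% mitochondrial limit.

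Of 4 type 2 dendritic cell genes tested, Mgl2 and Sirpa were higher and Ccr2 was lower in Epcam-positive cells with edgeR (median of the 4 2.08), and Ccr2 alone was called by DESeq2 and at a 5% mitochondrial limit. Ccr2 stood at 58.1 and 99.6 CPM in Epcam-positive and 627 and 661 CPM in Epcam-negative cells (log2 fold change -3.01 ± 0.32 SE, adjusted p = 0.00308). Kit, the receptor of stem cell factor, was lower too (-3.23 ± 0.67 SE, adjusted p = 0.0202), on 6 UMIs in Epcam-positive cells, and was not called at a 5% mitochondrial limit (adjusted p = 0.0714, edgeR), and DESeq2 gave it no adjusted p. Flt3, the growth factor receptor of conventional dendritic cells, did not pass (-1.43 ± 0.56 SE, adjusted p = 0.144). Of 9 epithelial adhesion genes tested, 2 were called higher in Epcam-positive cells, by edgeR and by DESeq2, and 2 had values of the other sign. Cdh1, the gene of E-cadherin, stood at 272 and 403 CPM in Epcam-positive and at 0 and 15.7 CPM in Epcam-negative cells, the latter from 1 UMI.

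Immediate-early and heat shock genes, which respond within a short time to stimulation and to tissue handling, made up another list. Of 18 tested, 11 were higher in Epcam-positive cells and none was lower, with a median log2 fold change of 2.26, and DESeq2 called 7. At a 5% mitochondrial limit edgeR called 6 of the 18 (median 2.09). Jun, a subunit of the transcription factor AP-1, stood at 1125 and 1307 CPM against 101 and 110 CPM (3.51 ± 0.29 SE, adjusted p = 0.00119). The heat shock gene Hspa1a stood at 5257 and 5292 CPM against 477 and 1129 CPM (2.82 ± 0.27 SE, adjusted p = 0.00273). Fos, the partner of Jun, did not pass (1.16 ± 0.34 SE, adjusted p = 0.0642). With edgeR it was called without doublet candidates (1.21, adjusted p = 0.000102) and with cells thinned to 2000 UMIs (0.896, adjusted p = 0.0428). It was also called without the filter on low counts (1.39, adjusted p = 4.22e-06, edgeR), and not under the other alternatives. Tnf, the gene of tumour necrosis factor, stood at 323 and 420 CPM in Epcam-positive cells and had no UMI in the Epcam-negative cells of these libraries, which makes it at least 22.0-fold higher against a floor of 3 counts over the class (DESeq2 did not call it).

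Of 10 cell cycle genes tested, 5 were lower in Epcam-positive cells (Mki67, Top2a, Mcm3, Cdca8 and Hmgb2), the median was -1.88, and DESeq2 called 1. At a 5% mitochondrial limit 1 of 7 was called (median -0.75, with 1 value positive), and with libraries holding at least 1 cell of both classes 0 of 3 were called (median -0.65, edgeR). Mki67, a marker of dividing cells, was called by edgeR (-2.42 ± 0.37 SE, adjusted p = 0.0075) and not by DESeq2 (-2.39, adjusted p = 0.121). It stood at 47.2 and 48.6 CPM in Epcam-positive cells against 235 and 275 CPM in Epcam-negative cells. Few cells were behind these sums: of 30 Mki67 UMIs in the Epcam-negative cells of PBMCsec 3, 28 came from 1 cell, and in vehicle 3 the 15 UMIs came from 3 cells. Both Mki67 and Top2a were detected in 10 of 181 Epcam-positive members (5.52%) and in 5 of 26 Epcam-negative members (19.2%, 95% exact binomial interval 6.55 to 39.4), which is 15 of 207 members in all (7.25%, 4.11 to 11.7). The same pair was detected in 10 of 149 Cd209a Mgl2 dendritic cells (6.71%) and in 5 of 188 C1q macrophages (2.66%). By library the members with both genes numbered 3, 0, 5 and 1 in PBMCsec 1 to 4 and 2, 0, 4 and 0 in vehicle 1 to 4.

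Antigen presentation genes outside the rule formed 2 lists. Of 7 class II pathway genes tested, H2-DMa, H2-DMb2 and Ctss were higher in Epcam-positive cells, and the median was 0.63. H2-DMa, a chain of the peptide exchange factor H2-M, stood at 2167 and 2171 CPM against 1138 and 1254 CPM (0.86 ± 0.17 SE, adjusted p = 0.0179), and Ctss, the protease that trims the invariant chain, at 773 and 882 CPM against 229 and 329 CPM (1.59 ± 0.27 SE, adjusted p = 0.01). Of 12 class I pathway genes tested, the peptide transporter gene Tap1 (-1.20 ± 0.31 SE, adjusted p = 0.043) and the immunoproteasome gene Psmb9 (-1.06 ± 0.27 SE, adjusted p = 0.0426) were lower, and none was higher. DESeq2 called Ctss alone among these genes, and edgeR did not call Ctss with cells thinned to 2000 UMIs (1.16, adjusted p = 0.0639). H2-DMb2 was not called by edgeR with thinned cells (1.29, adjusted p = 0.0623) or at a 5% mitochondrial limit (1.36, adjusted p = 0.0502). None of 4 costimulation genes tested passed.

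Keratinocyte transcripts were also unequal between the classes. The 12 listed keratinocyte genes summed to 2826 CPM in Epcam-positive and 379 CPM in Epcam-negative members, led by Lgals7, and all 5 that were tested (Krt15, Sfn, Perp, Dsp and Lgals7) were higher in Epcam-positive cells, with a median of 4.27. DESeq2 called 3 of the 5, as did edgeR at a 5% mitochondrial limit, in both without Krt15 and Dsp. A total of 13 members, all of them Epcam-positive, carried at least 2 keratinocyte or fibroblast marker genes at 3 or more UMIs and were doublet candidates, 11 of them for keratinocytes. Without them 1 of the keratinocyte genes was tested and it was not called (median 0.56), whereas 9 cDC1 genes were called lower, 14 immediate-early and heat shock genes higher, and of the Langerhans list 7 genes higher and Cd24a and Id2 lower. In all members the summed level was 1037 CPM for the monocyte list, led by S100a4, 850 CPM for the macrophage list, led by Apoe, 739 CPM for mature dendritic cell genes, led by Marcks, 699 CPM for type 2 dendritic cell genes, led by Sirpa, and 287 CPM for the fibroblast list, led by Dcn, which reached 638 CPM in PBMCsec 3. It was 14.8 CPM for mast cells, 7.11 CPM for T cells, 1.78 CPM for B cells, 4.14 CPM for neutrophils and 2.96 CPM for melanocytes. Their part in the differences between the classes was not tested.

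All members were then set beside 149 dermal dendritic cells gated by Cd209a and Mgl2, with Cd207 at 0 and otherwise the same criteria, in the 7 libraries with at least 5 cells of both. The compared class was chosen for other genes, and the genes of either gate were left out. Of 2601 genes tested, 775 (29.8%) passed, 410 (15.8%) higher and 365 (14.0%) lower in Cd207-positive cells, and DESeq2 called 684 (26.3%). All 10 Langerhans genes tested were higher, Epcam included, with a median log2 fold change of 3.34, beside 0.04 over all genes tested. Since Cd207 chose the cells, this count describes the class and is no support for its name.

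Ltc4s, the leukotriene C4 synthase, ranged from 585 CPM over a median of 738 to 1820 CPM in Cd207-positive cells and had no UMI in the dendritic cells of any library, so that it was at least 249-fold higher against a floor of 3 counts over the class. Hpgds, the haematopoietic prostaglandin D synthase, ranged from 690 over 836 to 1746 CPM and rested on 1 UMI in the dendritic cells (ratio 919, 95% exact interval 165 to 36338). The lysophosphatidic acid receptor gene Lpar3 was at least 90.5-fold higher, the class I-like gene H2-M5 at least 70.7-fold and the ATP-gated channel gene P2rx2 at least 63.8-fold. Each of these was higher in 7 of 7 libraries, and the classes did not overlap. Ltc4s was present in macrophages (median 125 CPM), whereas Lpar3, H2-M5 and P2rx2 had no UMI in the macrophages of 6 libraries either.

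Regulators of Langerhans cell identity and TGF-beta signalling differed in both directions. Of 11 tested, 7 were higher (Smad7, Skil, Runx3, Id2, Ahr, Irf8 and Spi1) and Zeb2 and Klf4 were lower. Runx3, a transcription factor that Langerhans cells require, ranged from 269 over 363 to 735 CPM against 16.3 over 44.4 to 85.8 CPM (3.26 ± 0.20 SE, adjusted p = 5.18e-08, edgeR). Ahr, the aryl hydrocarbon receptor, ranged from 221 over 306 to 441 CPM against 9.98 over 59.3 to 139 CPM (2.19 ± 0.30 SE, adjusted p = 4.74e-05). Zeb2, a repressor active in monocyte-derived cells and type 2 dendritic cells, ranged from 0 over 11.5 to 136 CPM against 561 over 672 to 1546 CPM (-4.72 ± 0.44 SE, adjusted p = 1.52e-06). For Irf8 the levels in Cd207-positive cells ranged from 80.3 over 231 to 784 CPM, and its highest library was PBMCsec 3, the library with most cells on the cDC1 side.

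Of 4 costimulation genes tested, 3 were higher and 1 was lower. Cd86, a ligand of CD28, ranged from 207 over 315 to 388 CPM against 20.0 over 69.5 to 91.2 CPM (2.26 ± 0.24 SE, adjusted p = 4.72e-06). Havcr2, the gene of the inhibitory receptor TIM-3, ranged from 108 over 328 to 596 CPM against 0 over 22.2 to 174 CPM (3.38 ± 0.38 SE, adjusted p = 7.28e-06). Cd83, a marker of activated dendritic cells, was higher in 6 of 7 libraries (2.09 ± 0.59 SE, adjusted p = 0.0141), and Vsir was lower. Csf1r ranged from 371 over 761 to 1363 CPM against 99.4 over 126 to 236 CPM (2.37 ± 0.22 SE, adjusted p = 1.58e-06), and Flt3 was lower (-1.22 ± 0.32 SE, adjusted p = 0.00944). Ly75, the endocytic receptor DEC-205, had no UMI in the dendritic cells and was at least 59.0-fold higher. The other 5 pattern recognition and Fc receptor genes tested were lower, among them the mannose receptor gene Mrc1 (-4.91 ± 0.49 SE, adjusted p = 2.88e-06) and the Fc receptor gene Fcgr3 (-2.94 ± 0.35 SE, adjusted p = 1.26e-05).

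**Figure D4:**
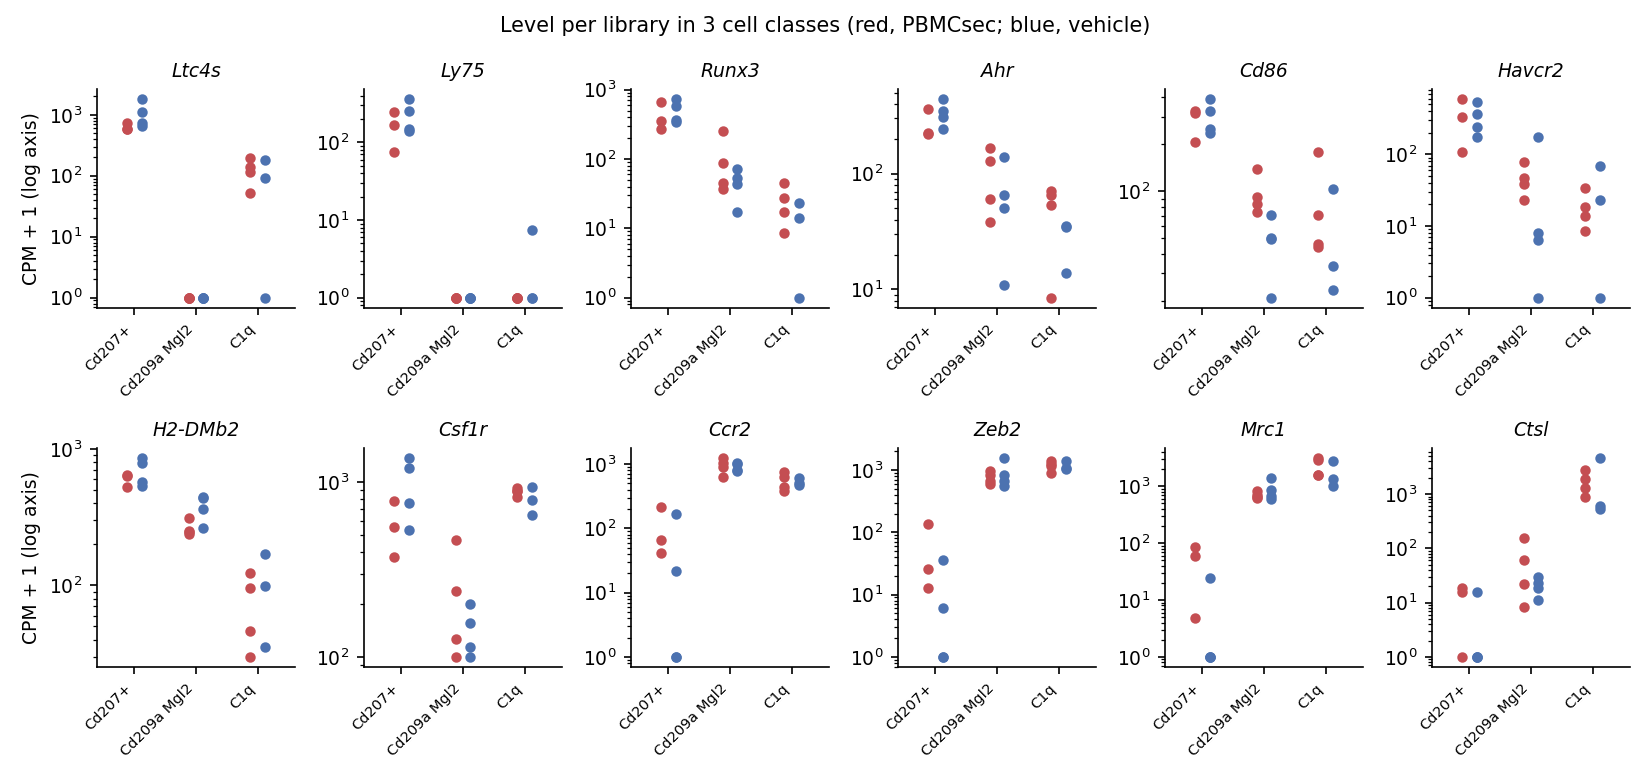
Level (CPM + 1, log axis) of 12 genes in Cd207-positive cells, Cd209a Mgl2 dendritic cells and C1q macrophages, 1 point per library with at least 5 cells of the class. Ltc4s, Ly75, Runx3, Ahr, Cd86, Havcr2 and H2-DMb2 are highest in Cd207-positive cells, Csf1r is at a similar height in macrophages, and Ccr2, Zeb2 and Mrc1 are low in Cd207-positive cells.

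Of 7 class II pathway genes tested, 4 were higher than in the dendritic cells. H2-DMa (0.82 ± 0.13 SE, adjusted p = 0.000248), H2-DMb1, H2-DMb2 (1.04 ± 0.17 SE, adjusted p = 0.000221) and March1, a ubiquitin ligase that removes class II molecules from the surface, passed, and Ciita (-0.34), Ctss (-0.24) and Lgmn (-0.52) did not (log2 fold changes). H2-DMb2 ranged from 524 over 635 to 857 CPM against 245 over 311 to 440 CPM. The tumour necrosis factor gene Tnf (3.30 ± 0.40 SE, adjusted p = 1.75e-05), the chemokine gene Cxcl16 and Il18 were higher, and Il1b did not pass. H2-DMb1 was not called without PBMCsec 4 or vehicle 4, nor Il18 without vehicle 1, 2 or 4. All 3 monocyte genes and all 6 type 2 dendritic cell genes tested were lower (medians -4.09 and -3.41). Cd209a and Mgl2, which chose the dendritic cells, belong to the type 2 list, so that the count of this list describes the gate. Among the type 2 genes, the lectin gene Clec10a ranged from 0 over 0 to 10.1 CPM against 141 over 285 to 1218 CPM (-6.61 ± 0.39 SE, adjusted p = 2.93e-08, edgeR). None of 6 cell cycle genes and none of 3 keratinocyte genes tested passed with edgeR.

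Against C1q macrophages in 6 libraries, 1153 of 2789 genes tested passed (41.3%), 585 higher (21.0%) and the others (20.4%) lower, and DESeq2 called 1044 (37.4%). Of 10 Langerhans genes tested, 9 were higher, with a median of 4.85 beside 0.04 over all genes. The exception was Csf1r, which ranged from 371 over 656 to 1363 CPM in Cd207-positive cells and from 648 over 849 to 927 CPM in macrophages (-0.34 ± 0.22 SE, adjusted p = 0.241), so that the classes overlapped. All 7 macrophage genes tested were lower, with a median of -6.20. Cd207 chose the members, and the C1q genes, which belong to the macrophage list, chose the macrophages. The counts of both lists thus describe the classes and are no support for their names. The chemokine gene Ccl8, at a median of 11256 CPM in macrophages, had 4 UMIs in all Cd207-positive cells of these libraries, and Ms4a7 and the folate receptor gene Folr2 had none, which makes them at least 498-fold and at least 362-fold lower.

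Class II pathway genes differed from macrophages in both directions. The members were chosen for high class II transcripts, whereas the macrophage gate set no class II threshold. Higher class II pathway genes in the members thus describe the gates in part. H2-DMa (2.20 ± 0.19 SE, adjusted p = 3.33e-07), H2-DMb1, H2-DMb2 (3.04 ± 0.29 SE, adjusted p = 7.34e-07), the class II transactivator gene Ciita and March1 were higher than in macrophages. The protease genes Ctss (-1.42 ± 0.15 SE, adjusted p = 2.28e-06), Ctsl (-6.94 ± 0.46 SE, adjusted p = 3.44e-08) and Lgmn (-5.33 ± 0.29 SE, adjusted p = 5.24e-09) were lower. Ctsl, cathepsin L, ranged from 0 over 7.37 to 17.3 CPM in Cd207-positive cells and from 536 over 1404 to 4583 CPM in macrophages, without overlap. All 8 class II pathway genes tested thus passed, 5 in one direction and 3 in the other. Among interferon response genes, 5 of 6 tested were lower and none was higher. All 4 keratinocyte genes tested were higher, beside the doublet candidates named above.

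The last comparison asked whether PBMCsec changed expression within the Cd207-positive cells, with sums per library as replicates (PBMCsec 1, 3 and 4 against vehicle 1 to 4; PBMCsec 2, with 3 members, was left out). No gene passed an adjusted p of 0.05 among 3039 tested with edgeR (0%) or DESeq2, and 83 genes (2.73%) had an unadjusted p under 0.05 with edgeR, 47 higher and 36 lower (24 higher and 25 lower with DESeq2). The groups did not overlap for 113 genes (3.72%). The sums hold both Epcam classes; in Epcam-positive cells alone, 0 of 2791 genes tested passed.

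None of the lists held a called gene. Of 10 Langerhans genes tested, 9 had a negative and 1 a positive log2 fold change, with a median of -0.15, beside 0.01 over all genes tested. The 4 cDC1 genes tested all had a positive value (median 0.95), beside the 29.7% of cells on the cDC1 side in PBMCsec 3. In Epcam-positive cells alone the 4 were again positive, with a median of 1.12, and the Langerhans and keratinocyte medians were -0.10 and 1.21. The summed level of the 10 cDC1 genes was 323, 223, 2649 and 954 CPM in PBMCsec 1 to 4 and 196, 174, 1468 and 1065 CPM in vehicle 1 to 4, so that it was high in the libraries numbered 3 of both groups. Class I genes had 12 of 13 values positive (median 0.29). Keratinocyte genes had 5 of 5 positive (median 1.17), and without the doublet candidates 1 was tested, at 0.09.

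The genes with the smallest unadjusted p are given as values that did not pass. Mgl2, the lectin gene of dermal dendritic cells, stood at 490, 73.0 and 266 CPM in PBMCsec 1, 3 and 4 and at 58.8, 53.5, 82.5 and 35.5 CPM in vehicle 1 to 4 (log2 fold change 2.21 ± 0.54 SE, adjusted p = 0.996, edgeR). The groups overlapped, since PBMCsec 3 lay below vehicle 3. Without PBMCsec 3, Mgl2 passed (log2 fold change 2.71, adjusted p = 0.0248, edgeR). Ifi27l2a, an interferon-induced gene, stood at 278, 102 and 118 CPM against 49.0, 0, 67.8 and 25.4 CPM (1.98 ± 0.53 SE, adjusted p = 0.996), without overlap. Krt15, a keratin of basal keratinocytes, stood at 202, 423 and 635 CPM against 0, 0, 139 and 162 CPM, without overlap. The keratinocyte list as a whole stood at 929, 93.0, 1654 and 8397 CPM in PBMCsec 1 to 4 and at 147, 174, 3345 and 1608 CPM in vehicle 1 to 4, and its part in the Krt15 values was not tested.

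Wfdc17 stood at 409, 11.5 and 275 CPM against 0, 0, 64.8 and 5.07 CPM, and Pgf, a growth factor of the VEGF family, at 278, 59.5 and 19.7 CPM against 0, 93.7, 0 and 5.07 CPM. In both the groups overlapped. Lower after PBMCsec, without passing, were Polg, Hlx, Ptpro, Mmp9 and Rgl2, with log2 fold changes between -1.43 and -1.09 and without overlap. Mmp9, a gelatinase of the matrix, stood at 156, 157 and 88.5 CPM against 471, 576, 212 and 178 CPM (-1.26 ± 0.41 SE, adjusted p = 0.996). Hlx, a homeobox gene, stood at 90.9, 88.4 and 98.4 CPM against 333, 321, 133 and 147 CPM (-1.18 ± 0.37 SE, adjusted p = 0.996). In these genes vehicle 1 and vehicle 2, with 10 and 6 members, were the highest.

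**Figure D5:**
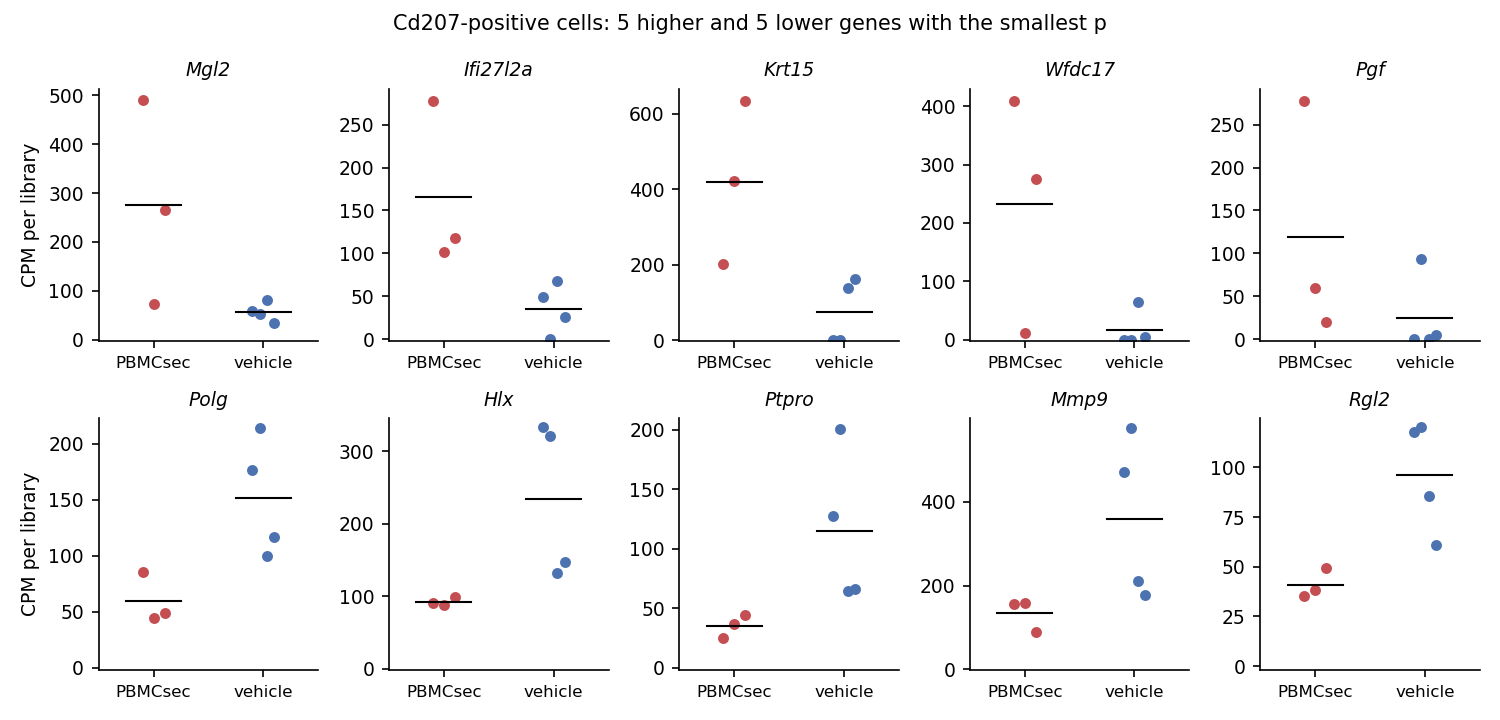
Level in CPM of the 5 genes with the smallest unadjusted p in each direction, in the summed Cd207-positive cells of PBMCsec 1, 3 and 4 and vehicle 1 to 4; each point is a library and the bar is the group mean. None passed an adjusted p of 0.05; Mgl2, Wfdc17 and Pgf overlap between groups, and Mmp9 and Hlx are highest in vehicle 1 and vehicle 2.

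Some transcripts came from few cells of 1 library. Of the Ccl22 UMIs, which encode a chemokine of mature dendritic cells, 159 came from 3 cells of PBMCsec 1, where the level was 803 CPM, and 39 from 2 cells of vehicle 4. Cxcl9, an interferon-gamma-induced chemokine gene, had 91 of its UMIs in 4 cells of PBMCsec 3 and 1 in vehicle 3. Krt17 had 483 UMIs in 8 cells of PBMCsec 4 (2376 CPM). Il1b ranged from 128 CPM in vehicle 1 to 1873 CPM in PBMCsec 1 over the 7 libraries, with a median of 370 CPM. With 3 to 64 cells behind each sum, such cells set the value of a library.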

How the data were processed

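Single-cell 3' libraries (10x Genomics v3.1) of 8 mice were read as deposited. The authors aligned reads to mm10 with Cell Ranger (version 3.0.2 in the submitters' processing notes; the methods name another version) and deposited raw UMI counts for 31053 genes and 26231 barcodes, of which 11118 passed the cell filter (6150 at the study's mitochondrial limit of 5%). Read sharing between paralogs (class II genes, Hspa1a and Hspa1b, Csf2rb and Csf2rb2) and BALB/c alleles that differ from the reference make these genes uncertain. The members, gates, gene lists and tests were chosen with earlier results of these data known. Cells were not re-clustered; doublets were marked by keratinocyte, fibroblast or T cell markers (at least 2 genes at 3 UMIs), without a caller.

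The UMIs of a class were added up within each library. The quasi-likelihood test of edgeR 4.0.16 (R 4.3.3) was run after filterByExpr and TMM scaling, at an adjusted p under 0.05, with the library as a block between classes and without it between treatments; DESeq2 1.42.0 was an alternative. Genes of the gates, Gm42418, Gm17056, Gm26917 and the collagen and keratin genes that the study removed were left out of the tests. Libraries with under 5 cells of a class were left out. Log2 fold changes are on edgeR's TMM scale, and CPM are UMIs per 1e6 of the summed cells. Shares were compared by exact permutation over libraries (Python 3.11.15, scipy 1.17.1), and positions are from the GENCODE annotation of the same build. Named genes were the list genes with at least 10 UMIs, the leading genes of other lists, the 10 largest called changes each way at 50 CPM or more, and, where under 5 genes were called between treatments, the 5 with the smallest p each way. Ccl22, Cxcl9, Krt17, Il1b and the C1q ratio were described after their values were seen. Some items are not reported here. Intervals and floors (3 counts) cover counting error only. On simulated counts, genes changed 4-fold were recovered at 89.7% between treatments (2-fold 17.0%) and 53.9% between Epcam classes (9.78%). Recovery was 100% against dendritic cells (65.1%) and 100% against macrophages (42.4%). The simulation gave all genes the same spread between libraries, not taken from these data, and changed only well-counted genes. These shares therefore need not hold for the real sums. Equal library numbers of PBMCsec and vehicle were paired only in the replicate block alternative, and the labels do not give such a pairing. Deviations from the group means correlated at 0.19, 0.16 and 0.31 for numbers 1, 3 and 4 over 3039 genes. For unequal numbers they correlated at -0.28 to 0.18, so that the ranges overlapped and the data do not establish a pairing.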

Additional observations from a re-analysis of the deposited data

Results flagged for a closer look

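In groups of 4 vehicle libraries, Wfdc17 stood at 64.8 CPM in the Cd207-positive cells of vehicle 3, far from the other libraries of the group at 0 to 5.07 CPM. Pgf stood at 93.7 CPM in vehicle 2, where the other libraries were at 0 to 5.07 CPM. The value of Pgf came from 7 UMIs over 6 members. A total of 20 groups were examined and 2 were marked, and chance marks about 1 in 20.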

How the results depend on the processing

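The difference in the share of Cd207-positive cells ranged from -0.832 to -0.126 percentage points when single libraries were left out and turned to 0.238 among the libraries numbered 3 and 4 alone; that in the share of Epcam-positive cells ranged from -10.8 to -4.19. Pairing the libraries by number (replicate block) gave -0.50 (exact permutation p = 0.375), -5.01 (p = 0.50) and 0 called genes, and changed no call. Between treatments, 43 genes were called without the filter on low counts (Mgl2, Ifi27l2a, Krt15, Wfdc17 and Pgf among them), and 0 to 2 with single libraries left out, the 2 without PBMCsec 3. Between Epcam classes, the 374 calls became 90 with DESeq2, 166 with cells thinned to 2000 UMIs (of 811 genes tested), 175 at a 5% mitochondrial limit, 239 with libraries holding at least 1 cell of both classes, 551 without doublet candidates and 528 without the filter on low counts; leaving out a library could not be fitted there, since 1 would remain. Over the genes of that comparison recomputed under the alternatives, 49 values lost and 7 gained a call; Tap1 lost its call in 4 and Psmb9 in 5 of 6 alternatives. Of the recomputed genes, Il1b against dendritic cells changed sign, from -0.72 without PBMCsec 1 to 0.17 without PBMCsec 3 or vehicle 1, and was not called in any. Without the filter on low counts, 1493 genes were called against dendritic cells and 2363 against macrophages; against dendritic cells, Spi1 lost its call without vehicle 4 (0.50, adjusted p = 0.0686, edgeR), H2-DMb1 without PBMCsec 4 (0.37, adjusted p = 0.0694) or vehicle 4 (0.42, adjusted p = 0.0507), and Il18 without vehicle 1 (0.98, adjusted p = 0.0622), 2 (0.75, adjusted p = 0.0861) or 4 (1.10, adjusted p = 0.0592). The causes were not tested. The sums of the treatment comparison held 74717 to 520645 UMIs.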
